A study of Homo sapiens with 8 samples.

Results

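The progesterone receptor (PR) sites described here were chosen by reads of DNA protected from micrococcal nuclease (MNase). At these sites the authors' normalized number of such reads was higher with hormone than without it. They were chosen from the authors' deposited table of the PR sites listed after 60 min of R5020, by 2 rules on its columns. The number of MNase reads in unstimulated cells had to be 10 or more, and the number with R5020 divided by the unstimulated number had to be 1.4 or more. Of the 24436 sites in the table, 24431 met the first rule and are called tested sites, and 956 of these met both. They made up 3.91% of the tested sites, and this share and all MNase values below describe the choice of sites and support no finding. With a ratio of 5 reads to 4 as the threshold there would be 1804 sites (7.38%), with a ratio of 2 there would be 92 (0.377%), and with at least 50 unstimulated reads 415 of 21643 (1.92%). A further 2 sites reached the ratio but had fewer than 10 unstimulated reads and were left out.

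The cells were T47D-MTVL, a luminal human breast cancer line that carries an integrated reporter gene under the mouse mammary tumour virus promoter. PR was precipitated from cells given 10 nM R5020, a synthetic progestin, for 5, 30, 60 or 360 min and from unstimulated cells (0 min). Lists from unstimulated cells alone give the regions of monomethylation (H3K4me1) and of trimethylation (H3K4me3) at lysine 4 of histone H3, and those of RNA polymerase II. Each of the 8 groups held 1 library, the read depth is unknown, and no difference below has a replicate check or a p-value. Markers of the cell type could not be checked, since no expression data were analysed here. Intervals of shares are exact (Clopper-Pearson) 95% intervals over sites and cover counting error only.

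PR is a nuclear receptor that binds DNA as a dimer once a progestin occupies it, and it recruits enzymes that modify histones and remodel nucleosomes. MNase cuts the linker DNA between nucleosomes, so that the fragments it leaves come mainly from DNA wrapped around histones. H3K4me1 marks enhancers and the flanks of promoters, H3K4me3 marks active promoters, and RNA polymerase II lies where genes are transcribed.

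Sites that reached the ratio were few in the deposited numbers. In the authors' deposited table, reads with R5020 exceeded unstimulated reads at 5104 of 24431 tested sites, and the unstimulated number was at least 1.4 times the R5020 number at 10072 sites (41.2%). The median ratio of R5020 to unstimulated reads was 0.773 over all tested sites, so a ratio of 1.4 in the deposited numbers lay 1.81 times above the median site. Scaling one MNase library against the other shifts every ratio by a common factor, and the sources used here do not say how the authors scaled them. With R5020 reads divided by that median ratio, 3709 of the 24431 tested sites reached 1.4 in place of 956. The number thus depends on the scaling by more than 1.5 times.

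The 956 sites stood out from the tested sites on the unstimulated side of the ratio. Their median was 74 normalized reads with R5020 (quartiles 54 and 104) and 45 unstimulated (32 and 65.25). Over all tested sites the medians were 75 with R5020 (51 and 108) and 97 unstimulated (67 and 141). With hormone, the chosen sites thus carried about as many reads as PR sites in general, and without hormone they carried fewer. Per 100 bp of site the medians were 25.7 with R5020 and 15.7 unstimulated at the chosen sites, against 23.1 and 30.3 over all tested sites. The median ratio of the chosen sites was 1.56 and the highest 4.22, and 92 sites had at least 2 times as many reads with R5020.

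**Figure D1:**
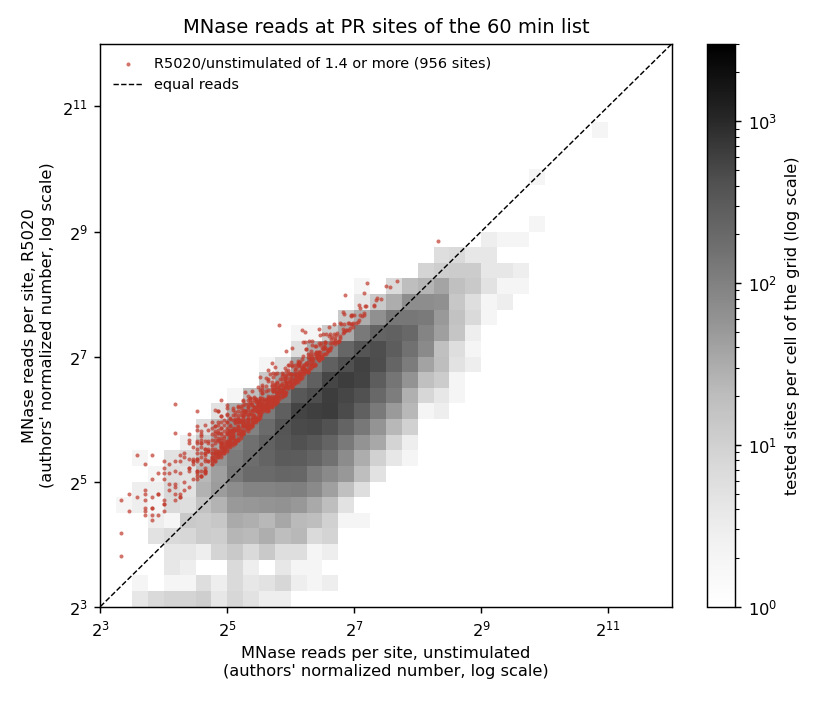
MNase reads per site with R5020 (vertical axis) against unstimulated reads (horizontal axis), both as the authors' normalized numbers on log scales. Grey cells give the number of tested sites, red points are the 956 sites with a ratio of 1.4 or more, the dashed line marks equal reads, and the 37 sites with fewer than 8 reads with R5020 are drawn at 8. The red points crowd toward low unstimulated reads, with a median of 45 against 97 for all tested sites.

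Low unstimulated reads weighed heavily in the choice. Of the 459 tested sites with 10 to 29 unstimulated reads, 174 (37.9%) met the ratio, and of the 11837 sites with 100 or more, 63 (0.532%) did. The difference in reads was under 20 at 227 of the 956 sites, with a median of 28 and a range of 4 to 143. The ratio was under 1.5 at 308 of them, and 467 further tested sites lay between 1.3 and 1.4. Many sites are therefore close to the threshold, and 17 lie exactly on it.

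Sites near the threshold show how small the step is. On chromosome 1 from 198202135 to 198202355 the site had 77 reads with R5020 and 55 unstimulated, a ratio of exactly 1.4. Just outside, on chromosome 12 from 100160278 to 100160732, there were 137 reads with R5020 and 98 unstimulated. The sites with the fewest unstimulated reads had 10 each, with 26 reads after R5020 on chromosome 1 from 230887357 to 230887618, 18 on chromosome 4 from 156731054 to 156731293 and 14 on chromosome X from 135670414 to 135670615.

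Among sites with at least 50 unstimulated reads, the leading ratio belonged to a site of 455 bp on chromosome 1 from 215779985 to 215780440, with 181 reads after R5020 and 56 unstimulated. It lay in none of the 3 kinds of chromatin region and was listed at 30, 60 and 360 min. The second was a site of 658 bp on chromosome 16 from 84763918 to 84764576, with 172 and 72 reads, in an H3K4me1 region and listed at all 4 times with hormone. The third, on chromosome 12 from 116546477 to 116546824, had 119 and 52 reads and was unmarked. These 3 sites share neither a chromatin class nor a set of listed times.

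The other 7 of the 10 leading sites of this kind had ratios from 2.08 to 2.24. The strongest of them, on chromosome 15 from 20863155 to 20863407, had 168 reads with R5020 and 75 unstimulated, lay in an H3K4me1 region and was listed at 60 min alone. Next came chromosome 21 from 18744460 to 18745031 (136 and 61 reads) and chromosome 8 from 116853713 to 116854115 (110 and 50 reads). The chromosome 3 site from 85318453 to 85319089 had the most reads of the 10, with 253 after R5020 and 116 unstimulated. Chromosome 3 from 157002482 to 157002866 (141 and 65 reads), chromosome 8 from 115793739 to 115794076 (114 and 54 reads) and chromosome 1 from 178720563 to 178720986 (106 and 51 reads) completed the list. Of the 10, 7 lay in none of the 3 kinds of chromatin region, and the 3 others lay in H3K4me1 regions.

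Measured per 100 bp, the largest difference in deposited reads was at a site on chromosome 9 from 68431939 to 68432175, with 195 reads per 100 bp after R5020 and 135 unstimulated. Reads around it were dense in both conditions. Between 68 and 69 Mb of that chromosome the median of 9 tested sites was 1195 reads with R5020 and 1218 unstimulated, and the site named is the only one of the 9 that met the ratio. It was followed by chromosome 3 from 197482067 to 197482229 (88.9 and 51.9 per 100 bp), the chromosome 15 site above, chromosome 4 from 190825593 to 190825829 (78.0 and 43.6) and chromosome 3 from 180667812 to 180668065 (80.6 and 49.4). All 5 lay in H3K4me1 regions, unlike most of the 956. All but the chromosome 15 site had over 41.6 unstimulated reads per 100 bp, the densest of 4 classes of tested sites of about equal size. In that class 71.4% (41.9 to 91.6%) of the chosen sites and 70.6% of the other tested sites lay in H3K4me1 regions. Most of the chosen sites in that class lay on chromosome 3.

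Most of the sites that gained reads lay outside all listed chromatin regions of unstimulated cells, and few of them overlapped H3K4me3 or polymerase regions. Of the 956 sites, 797 (83.4%, 80.9 to 85.7%) overlapped none of the 3 kinds of region, against 12302 of 24431 tested sites (50.4%, 49.7 to 51.0%). H3K4me1 regions held 156 of them (16.3%, 14.03 to 18.8%), against 11787 (48.2%, 47.6 to 48.9%). H3K4me3 regions held 5 (0.523%, 0.170 to 1.22%), against 1252 (5.12%, 4.85 to 5.41%). RNA polymerase II regions held 2 (0.209%, 0.0253 to 0.754%), against 2180 (8.92%, 8.57 to 9.29%). For each mark the intervals are far apart.

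Read the other way, 6.48% (6.05 to 6.93%) of unmarked tested sites met the ratio. The share was 1.32% (1.13 to 1.55%) of sites in H3K4me1 regions, 0.399% (0.130 to 0.929%) of those in H3K4me3 regions and 0.0917% (0.0111 to 0.331%) of those in RNA polymerase II regions. None of the 685 tested sites that overlapped all 3 kinds of region met it. This allows a share of up to 0.438% by a limit of 3 counts, and the exact interval reaches 0.537%.

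The few sites with H3K4me3 or polymerase were chosen for description after their values were seen. One, on chromosome 4 from 95128435 to 95128791, overlapped both H3K4me3 and RNA polymerase II regions, had 49 reads with R5020 and 26 unstimulated, and was listed at all 4 times with hormone. The second site with polymerase was the one on chromosome 1 from 230887357, which had 26 and 10 reads. H3K4me3 without polymerase was found on chromosome 17 from 48945588 to 48945996 (124 and 79 reads), chromosome 2 from 183944196 to 183944479 (57 and 33 reads), chromosome 7 from 27780903 to 27781153 (70 and 39 reads) and chromosome 9 from 114661093 to 114661412 (128 and 88 reads). Both polymerase sites had under 30 unstimulated reads. With a minimum of 50 unstimulated reads no member was left in a polymerase region, and 2 were left in H3K4me3 regions.

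**Figure D2:**
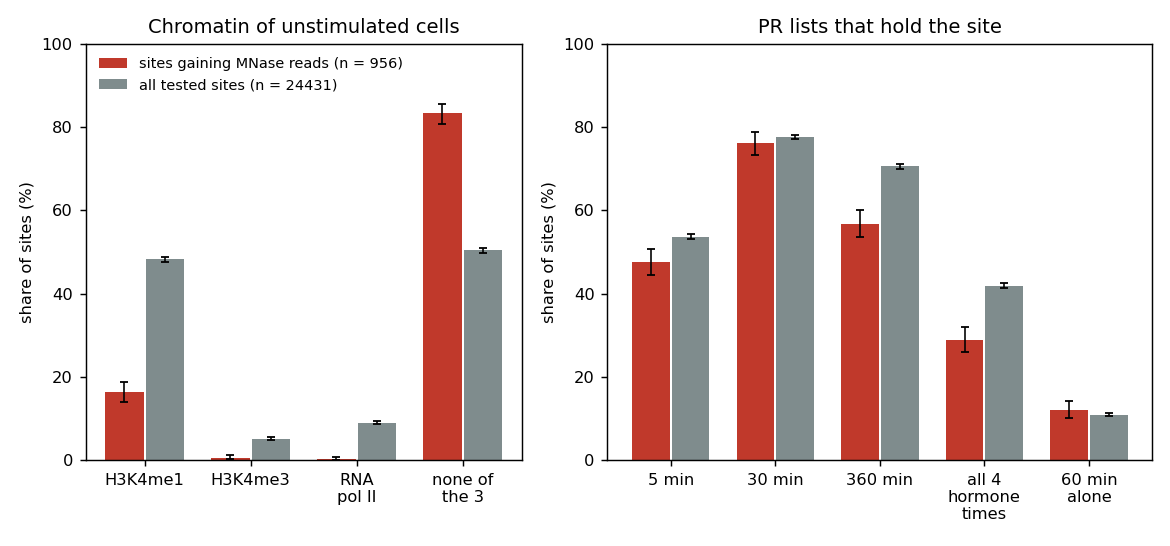
Share of sites (vertical axis, %) in each kind of chromatin region of unstimulated cells (left) and in each other PR list (right), for the 956 sites gaining MNase reads (red) and all 24431 tested sites (grey). Bars are shares and error bars exact 95% intervals that cover counting error only. The red bars are lower for each mark, higher for sites in none of the 3, lower for the 360 min list and close to the grey ones for the 30 min list.

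Because H3K4me1 was also rarer at sites with few unstimulated reads, the shares were set side by side within bands of unstimulated reads, bands that were set with the values in view. With 10 to 29 reads, 10.3% (6.25 to 15.9%) of the sites that gained reads lay in H3K4me1 regions, against 29.8% (24.6 to 35.5%) of the other tested sites. With 30 to 49 reads the shares were 12.5% (9.32 to 16.4%) and 24.9% (23.0 to 26.9%). With 50 to 74 reads they were 19.9% and 33.1%, with 75 to 99 reads 22.5% and 44.4%, and with 100 or more 30.2% (19.2 to 43.0%) and 62.7% (61.8 to 63.5%). In all 5 bands the sites that gained reads were less often in H3K4me1 regions, and the intervals did not overlap.

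Bands of read density, which take the width of a site into account, gave the same order except at the top. The tested sites were split into 4 classes of about equal size by unstimulated reads per 100 bp. In the lowest class, which held 733 of the 956, the H3K4me1 shares were 13.51% (11.1 to 16.2%) and 26.1% (24.9 to 27.3%) for the other sites. In the second class they were 19.8% and 41.1%, and in the third 33.3% (19.6 to 49.5%) and 57.4%. In the class with the highest density, 14 sites had met the ratio, and their share of 71.4% (41.9 to 91.6%) could not be told from the 70.6% of the others. Most of these 14 lay on a stretch of chromosome 3, from 169981084 to 197482229. The interval treats sites as independent and may be too narrow, and the share describes that stretch more than the genome.

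**Figure D3:**
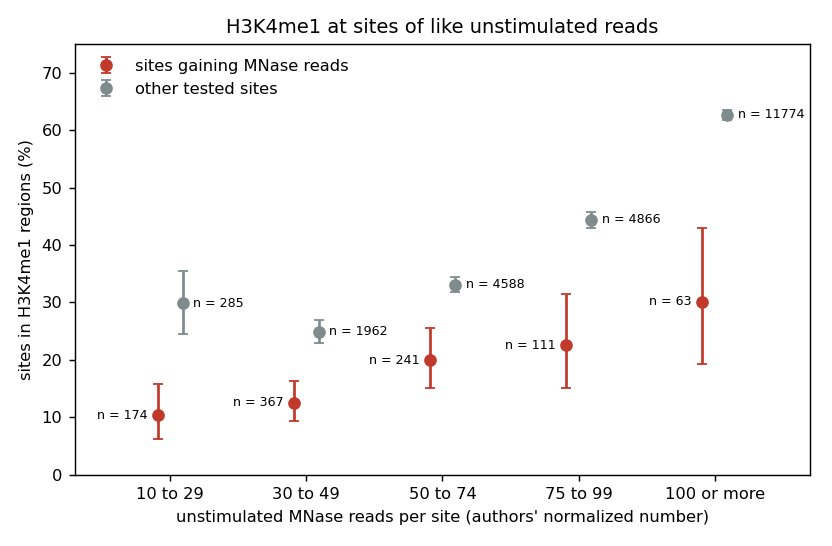
Share of sites in H3K4me1 regions (vertical axis, %) by unstimulated MNase reads per site (horizontal axis), for sites gaining MNase reads (red) and the other tested sites (grey), with exact 95% intervals and the number of sites. The red points lie below the grey ones in each of the 5 bands, from 10.3% against 29.8% to 30.2% against 62.7%.

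The H3K4me1 share was lower in each successive band of the ratio, over all tested sites. Where unstimulated reads were at least 2 times the R5020 reads, 81.5% (80.2 to 82.9%) of 3283 sites lay in H3K4me1 regions, and polymerase regions held 34.5% (32.8 to 36.1%). Where the ratio of R5020 to unstimulated reads was above 1 but under 1.4, at 4148 sites, the shares were 25.6% (24.3 to 26.9%) and 1.06% (0.772 to 1.42%). From 1.4 to under 2 they were 16.8% (14.3 to 19.4%) and 0.116% (0.00293 to 0.643%) of 864 sites. At a ratio of 2 or more the H3K4me1 share was 11.96% (6.12 to 20.4%) of 92 sites, with an interval that overlaps that of the band from 1.4 to under 2. The polymerase share there was 1.09% (0.0275 to 5.91%, 1 of 92 sites), above the 0.116% of that band, again with overlapping intervals. The median unstimulated reads also differed along these bands, at 112, 76, 47 and 27.

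**Figure D4:**
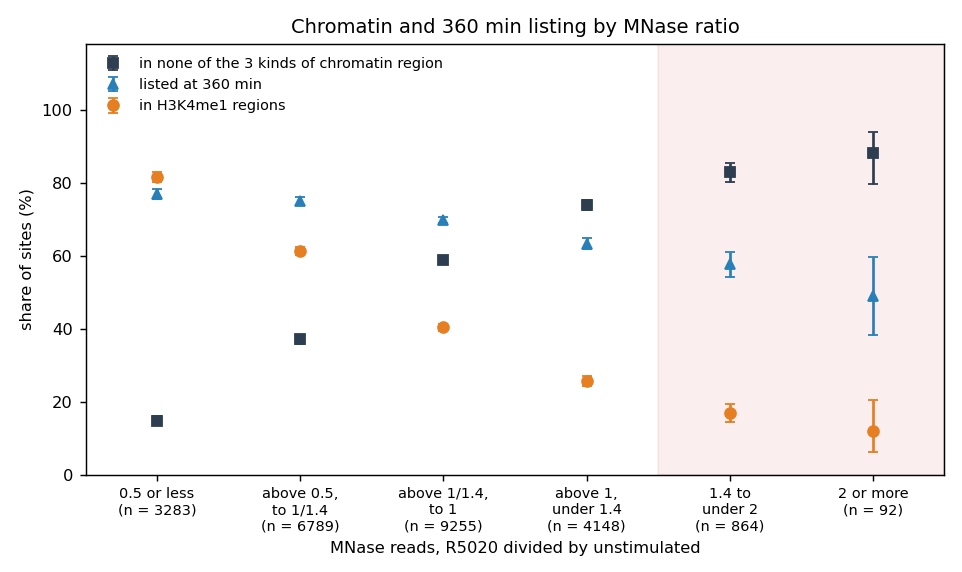
Share of tested sites (vertical axis, %) in no chromatin region, in the 360 min PR list and in H3K4me1 regions, by the ratio of R5020 to unstimulated MNase reads (horizontal axis). Error bars are exact 95% intervals, and the shaded bands hold the 956 chosen sites. From left to right the H3K4me1 share goes from 81.5% to 11.96% and the unmarked share from 14.8% to 88.0%.

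The 156 sites that overlapped H3K4me1 regions mostly lay near or across the edges of those regions. Their midpoints were a median of 182 bp inside the nearer edge (quartiles 31 and 816.5 bp). For all 11787 tested sites that overlapped such regions the median was 1168 bp (581 and 2400.5 bp). Midpoints beyond the edge counted as negative distances here and below. They occurred at 34 of the 156 (21.8%, 15.6 to 29.1%), against 2.84% (2.55 to 3.16%) of the 11787. Of the 156, 106 (67.9%, 60.0 to 75.2%) had a midpoint within 500 bp of the edge or beyond it, against 21.0% (20.3 to 21.8%). The regions were also narrower, with a median of 2656 bp against 4236 bp, and narrow regions leave less room from the edge. In regions under 2000 bp wide, the median distance was 92 bp for 59 of the sites and 429.5 bp for the other tested sites, and in regions of 2000 to under 4000 bp it was 194.5 bp for 54 sites and 883.5 bp. In regions of 8000 bp or more the 9 sites had a median of 3467 bp, against 4068 bp.

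The 800 sites outside H3K4me1 regions were a median of 22095 bp from the nearest one (quartiles 4992 and 67506 bp), against 15567 bp (3935 and 52786 bp) for all tested sites outside. Counting H3K4me1 regions within 10000 bp, 46.2% (43.0 to 49.5%) of the 956 sites were inside or near one, against 69.6% (69.04 to 70.2%) of tested sites. On both measures the sites that gained reads lay farther from the mark than PR sites in general.

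PR binding at these sites was listed less often at 360 min than at PR sites in general, while the 30 min list held a like share. The 360 min list held 543 of the 956 (56.8%, 53.6 to 60.0%), against 17239 tested sites (70.6%, 70.0 to 71.1%). The 30 min list held 729 (76.3%, 73.4 to 78.9%), against 77.6% (77.0 to 78.1%). The 5 min list held 455 (47.6%, 44.4 to 50.8%), against 53.7% (53.1 to 54.3%). All 4 times with hormone listed 276 sites (28.9%, 26.0 to 31.9%), against 41.9% (41.3 to 42.5%), and 60 min alone listed 115 (12.03%, 10.03 to 14.3%), against 10.9% (10.5 to 11.3%). These lower shares were not particular to the 956. Of the 4148 tested sites with a ratio above 1 but under 1.4, 63.3% (61.8 to 64.8%) were listed at 360 min. At 5 min 45.5% (44.0 to 47.0%) of them were listed, and at all 4 times 32.3% (30.9 to 33.8%). At 360 min the share of the 956 was lower still. A site missing from a list is not thereby shown to be unbound, since the lists carry no score and the sources used here do not give their thresholds.

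By combination of times, the shares were largest for sites listed at 60 min with an earlier time and absent at 360 min. The ratio was met by 6.54% (5.49 to 7.73%) of the 1956 tested sites listed at 5, 30 and 60 min and by 6.53% (5.49 to 7.69%) of the 2038 listed at 30 and 60 min. It was met by 7.02% (4.99 to 9.55%) of the 527 listed at 5 and 60 min. The 10157 tested sites found in all 4 hormone lists but missing from the unstimulated list met it in 2.72% (2.41 to 3.05%) of cases, and those listed at 30, 60 and 360 min in 4.07% (3.52 to 4.67%) of 4722. Sites listed at 60 min alone, also absent at 360 min, met it in 4.32% (3.58 to 5.16%) of 2662 cases. The largest single combination among the 956 was nonetheless all 4 times, followed by 192 sites listed at 30, 60 and 360 min, 133 at 30 and 60 min and 128 at 5, 30 and 60 min.

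Holding chromatin class equal left the difference at 360 min in place, while at 5 min the intervals overlapped. Among unmarked sites, 55.7% (52.2 to 59.2%) of the 797 were listed at 360 min, against 67.5% (66.6 to 68.3%) of all unmarked tested sites. In H3K4me1 regions the shares were 62.2% (54.1 to 69.8%) of 156 sites and 73.9% (73.1 to 74.7%). At 5 min the shares were 44.4% (40.9 to 47.9%) and 41.6% (40.8 to 42.5%) of unmarked sites, and 62.8% (54.7 to 70.4%) and 66.1% of sites with H3K4me1. Of the 4001 unmarked sites not listed at 360 min, 8.82% (7.96 to 9.74%) met the ratio, against 5.35% (4.87 to 5.85%) of the 8301 unmarked sites that were listed then. Within bands of unstimulated reads the 360 min share was lower in each of the 5 bands, but with 75 to 99 reads alone did the intervals separate, at 54.1% (44.3 to 63.6%) against 68.7% (67.4 to 70.0%) for the other tested sites. With 10 to 29 reads the shares were 50.6% (42.9 to 58.2%) and 61.1% (55.1 to 66.7%).

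No site of the 956 was listed in unstimulated cells, which allows a share of up to 0.314%. Among all tested sites 89 (0.364%, 0.293 to 0.448%) were. The exact interval for 0 of 956 reaches 0.385% and so includes the share of all tested sites, and a difference was not shown at this number of sites.

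The sites were somewhat narrower than PR sites in general. At 60 min their median width was 284 bp (quartiles 245 and 349 bp), against 313 bp (261 and 393 bp). The sites that overlapped them were narrower at each other time too, with medians of 269 bp against 300 bp at 5 min, 278 bp against 304 bp at 30 min and 255 bp against 282 bp at 360 min. Of tested sites up to 261 bp wide, the narrowest of 4 classes of about equal size, 5.57% (5.02 to 6.17%) met the ratio, and of the widest class (394 bp or more) 2.43% (2.05 to 2.85%) did. A wider site holds more reads, and the chosen sites had fewer unstimulated reads. At equal unstimulated reads the order of widths was the opposite, with medians of 258 bp for the sites that gained reads and 249 bp for the others at 10 to 29 reads, and 450 bp and 360 bp at 100 or more.

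The sites were spread over the genome. They occurred on all 23 chromosomes with tested sites and in 437 of 589 bins of 5 Mb that held a tested site. In 188 of these bins there was 1 such site, in 216 there were 2 to 4, and in 33 there were 5 or more. Of the 472 bins with at least 20 tested sites, 105 had none. The 10 bins with most of them held 84 sites, 8.79% of the 956, and 2.92% of tested sites, a comparison in which the bins were chosen by the count itself.

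The share of tested sites that met the ratio differed between chromosomes by more than counting error. It was highest on chromosome 4 at 7.09% (5.58 to 8.85%, 71 of 1002 sites), followed by chromosome 13 at 5.87%, chromosome X at 5.68% and chromosome 2 at 5.498%. It was lowest on chromosome 19 at 1.04% (0.285 to 2.65%, 4 of 384), chromosome 16 at 1.37% (0.711 to 2.38%), chromosome 17 at 2.09% and chromosome 22 at 2.16%. In number, chromosome 3 led with 105 sites. The chromosomes with the highest shares had few sites in H3K4me1 regions, 15.9% on chromosome 4, 20.3% on chromosome 13, 17.2% on chromosome X and 22.3% on chromosome 2, and those with the lowest had many, 59.1% on chromosome 19 and 77.2% on chromosome 17. Chromosomes 4, 13, X and 2 also had low median unstimulated reads, at 67, 74, 53 and 67 against 97 over all tested sites. On chromosomes 19, 16, 17 and 22 the medians were 70, 108, 127 and 75.5. The median ratio was 0.840 on chromosome 4 and 0.575 on chromosome 19. How reads and chromatin each relate to the share was not tested.

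Chromosome 3 had a share of 5.07% (4.17 to 6.11%) with 57.5% of its tested sites in H3K4me1 regions. Across the 23 chromosomes, Spearman's rho between the 2 shares was -0.71, and -0.24 when the first share was taken over unmarked sites alone. All points come from the same libraries, and rho is given as a description. Among unmarked sites chromosome 17 had 7.08% (4.18 to 11.1%) and chromosome 4 had 8.01% (6.24 to 10.1%), with overlapping intervals. Chromosome 19 remained low at 1.47% (0.179 to 5.21%, 2 of 136), below the interval of chromosome 4.

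**Figure D5:**
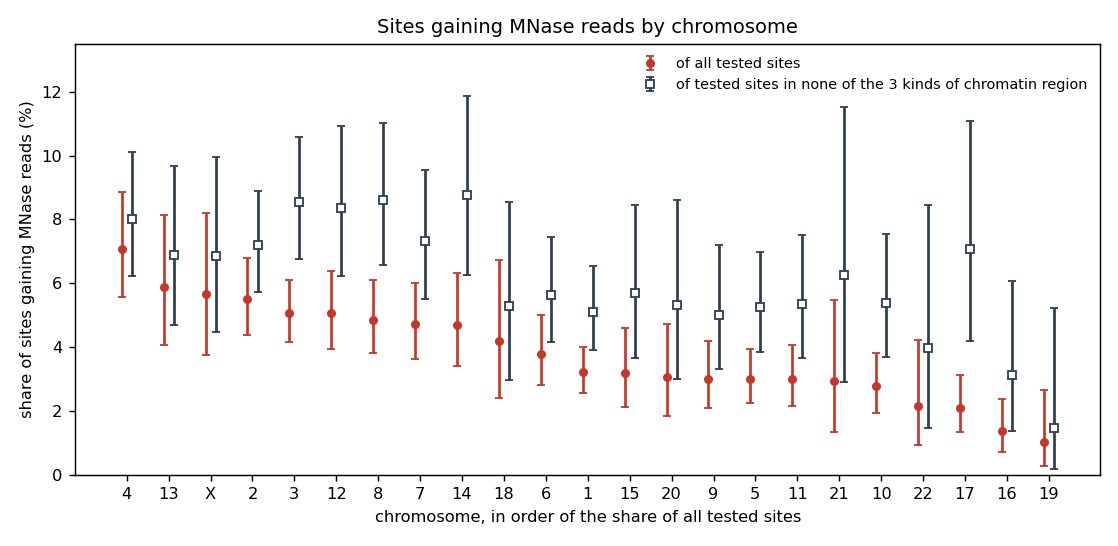
Share of tested sites that gained MNase reads (vertical axis, %) on each chromosome (horizontal axis), over all tested sites (filled red points) and over tested sites in none of the 3 kinds of chromatin region (open squares), with exact 95% intervals. The filled points span 1.04% to 7.09%, and the open squares of chromosomes 4 and 17 lie close together at 8.01% and 7.08%.

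Among bins with at least 20 tested sites, the highest share was at 195 to 200 Mb of chromosome 1, where 8 of 37 sites (21.6%, 9.83 to 38.2%) met the ratio. It was followed by 70 to 75 Mb of chromosome 12 (6 of 31), 35 to 40 Mb of chromosome 14 (9 of 48), 80 to 85 Mb of chromosome 12 (8 of 45) and 15 to 20 Mb of chromosome 7 (8 of 45). The median ratio of all tested sites in these 5 bins was between 0.875 and 1.00, against 0.773 over all tested sites. These medians include the chosen sites by which the bins were picked and are given as a description. The next were 70 to 75 Mb of chromosome 13 (4 of 23), 10 to 15 Mb of chromosome 20 (4 of 24) and 70 to 75 (4 of 24), 95 to 100 and 115 to 120 Mb of chromosome 4 (4 of 25 each). The most sites in a bin were 13 of 99, at 115 to 120 Mb of chromosome 8, which includes 2 of the leading sites named above.

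The nearest PR sites had higher ratios than PR sites in general, though mostly under 1. For 790 of the 956 sites the nearest other tested site was within 100 kb. That neighbour had itself met the ratio in 50 cases (6.33%, 4.73 to 8.26%), against 3.67% (3.42 to 3.93%) for the nearest neighbours of all tested sites. Chosen sites that are each other's nearest are counted from both sides. The intervals of these shares are therefore too narrow, and their separation does not by itself show a difference. The neighbours of the 790 had a median ratio of 0.854 (quartiles 0.699 and 1.07), against 0.756 (0.587 and 0.945), and 35.9% (32.6 to 39.4%) of them lay in H3K4me1 regions, against 54.1%. The ratios of neighbours come from the columns used for the choice and include the 50 chosen neighbours. They are given as a description. Around unmarked sites alone the differences were smaller. There the neighbour had met the ratio in 6.85% (5.02 to 9.09%) of cases, against 5.18% (4.76 to 5.63%), with overlapping intervals, and the median ratios were 0.867 and 0.816. The sites also lay farther from other PR sites, with a median of 20816 bp to the nearest, against 12143 bp, and among unmarked sites 24599 bp against 22969 bp.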

How the data were processed

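PR, H3K4me1, H3K4me3 and RNA polymerase II sites are regions (chromosome, start, end) deposited by the authors, 1 list for each sample, and carry no scores. The build is hg19, as the submitters' processing notes name it. The sources used here give no aligner, peak caller or threshold. A further table gives the authors' normalized MNase reads at the 60 min PR sites. Being normalized, these whole numbers deposited by the authors were treated as a score, never as raw counts, and the 2 MNase libraries behind them are not among the 8 samples. Per the series' design text, MNase-treated cells had received R5020 for 60 min or none. The authors' deposited ratio column is unstimulated over R5020. It was not used for the choice of sites and matched the quotient of the read columns within rounding at 24433 sites. Start and end positions are those of the lists.

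Overlap meant 1 bp or more. Neighbours were measured between midpoints, and bins of 5 Mb were counted by midpoints. A count of 0 was given an upper limit of 3 counts. With 1 library per group no test was run. Sites named individually were those with the highest ratio at 50 or more unstimulated reads, the largest gain per 100 bp, an overlap with both H3K4me3 and polymerase, or a place at the thresholds, and the leading bins and chromosomes. The members, rules and bands were chosen with earlier results of these data known. The overlap code and the ratio rule were tested on simulated data, and the code for shares, edge distances and neighbours was not. No hg19 genome or gene annotation was used here, so no sequences or gene names are given. Python 3.11.15, NumPy 2.4.6, pandas 2.3.3, SciPy 1.17.1 and Matplotlib 3.10.9 were used.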

Additional observations from a re-analysis of the deposited data

How the results depend on the processing

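Of 88 values computed under 13 alternatives, 52 moved by less than their 95% interval, or by less than 1.5 times for the number of sites, and 36 moved by more. No paired analysis was possible because each group holds 1 sample. The read depth behind the lists and the MNase numbers is unknown, which limits every statement about sites with few reads.

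With a ratio of 5 reads to 4 there were 1804 sites (7.38% of tested), 19.9% of them in H3K4me1 regions, 79.9% unmarked, with 12.99% of nearest neighbours also chosen. With a ratio of 2 there were 92 (0.377%), with 11.96% in H3K4me1, 0% in H3K4me3 and 1.09% in RNA polymerase II regions, 88.0% unmarked, 19.6% in all 4 lists with hormone, 9.78% in the 60 min list alone, a median width of 272 bp and 0% of nearest neighbours chosen. With at least 50 unstimulated reads there were 415 (1.92%), with a median width of 324 bp and 3.24% of nearest neighbours chosen. Of the 415, 22.2% lay in H3K4me1 regions (51.5% of all tested sites with that minimum) and 0% in RNA polymerase II regions (9.53%). The unmarked share was 77.6% (47.1%). After R5020 reads were divided by the median ratio of 0.773 there were 3709 of 24431 tested sites. Of these, 22.4% lay in H3K4me1 regions and 77.3% were unmarked, with a median width of 301 bp and 22.1% of nearest neighbours chosen. In the wider 50% of the list there were 365 of 12239 tested sites, with 3.28% of nearest neighbours chosen. Of the 365, 8.49% were listed at 60 min alone, against 7.64% of the tested sites in that part of the list.

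With midpoints, 12.97% lay in H3K4me1 regions (46.9% of all tested sites) and 86.8% were unmarked. Within 1000 bp of a region the shares were 26.2% for H3K4me1 (53.2% of all tested sites), 3.03% for H3K4me3 (8.71%), 3.45% for RNA polymerase II (14.02%), 72.8% unmarked (45.1%) and 34.9% listed at all 4 times (47.0%). With a reciprocal overlap of 50%, 25.1% were listed at all 4 times (36.8%) and 14.6% at 60 min alone (13.6%). The shares of neighbours depend on how many sites are chosen and are not comparable between ratios.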

Other observations

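Of the 354 chosen sites with another tested site within 10 kb, 21 (5.93%, 3.71 to 8.93%) had a nearest site that was itself chosen. The share for all tested sites was 3.12% (2.81 to 3.46%). Among unmarked sites the shares were 6.11% (3.53 to 9.73%) and 4.96% (4.32 to 5.66%), with overlapping intervals. Pairs that are each other's nearest are counted from both sides among the 21. The closest were a pair in an H3K4me1 region on chromosome 3, where the site from 191888717 to 191889010 had 126 MNase reads with R5020 and 82 unstimulated, and the site from 191889012 to 191889244 had 120 and 64. On chromosome 2 there were 3 unmarked sites within a short stretch, from 43683737 to 43684089 (70 reads with R5020 and 29 unstimulated), from 43689394 to 43689712 (42 and 29) and from 43690507 to 43690868 (33 and 14). None of these 3 was listed at 360 min.

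The sites named here were chosen after their values were seen. Of the 956 sites, 9 had at least 150 unstimulated reads, and 4 of these lay on chromosome 3. These were from 164509996 to 164510491 (277 reads with R5020 and 190 unstimulated), 178724278 to 178724835 (297 and 205), 183183551 to 183184133 (223 and 159) and 183929431 to 183929842 (281 and 182). Chromosome 3 held 105 of the 956 sites and 2069 of the 24431 tested sites. It also had a high median number of unstimulated reads over all its tested sites, at 124 against 97 in the whole table. The share of chromosome 3 among tested sites with at least 150 unstimulated reads is not given here, so the 4 of 9 are a description only.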
